A study of Mus musculus with 8 samples.

Results

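A set of 10 genes of the contractile cytoskeleton and its surrounding matrix was followed through the loss of RBP2 and the withdrawal of LIF in mouse embryonic stem (ES) cells. They were the transcription factor gene Srf, the contractile genes Acta2, Tagln, Cnn1, Cnn2, Tpm1 and Myl9, and the secreted matricellular genes Ccn1, Ccn2 and Thbs1. Members were all probe sets whose only annotated gene symbol was one of these names, which gave 20 of 45101 probe sets and 10 of the 18193 genes with a probe set of their own. The groups were Rbp2-/- cells after 6 days without LIF, Rbp2f/f cells after 6 days without LIF, Rbp2-/- cells with LIF and Rbp2f/f cells with LIF, each with 2 arrays (Affymetrix GeneChip mouse genome arrays). LIF is the cytokine that holds mouse ES cells in the undifferentiated state. RBP2 was read as the histone H3 lysine 4 demethylase now named KDM5A, and f/f as a conditional allele flanked by loxP sites. The 2 arrays of a group were described as biological replicates with nothing said of cultures, clones or feeder cells, so p-values measure only the spread between these samples, which may be technical.

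Serum response factor, SRF, binds the CArG box in DNA and works through 2 kinds of partner. Its myocardin-related partners are held by monomeric actin and enter the nucleus when actin polymerises, and they drive genes of the contractile apparatus. Its ternary complex partners, such as ELK proteins, drive immediate early genes. YAP and TAZ, which the Hippo kinases keep out of the nucleus, act through TEAD factors bound to sites with the core GGAATG. Ccn1, Ccn2 and Thbs1 are widely used readouts of YAP, TAZ and TEAD, and Ccn1 and several contractile genes answer to SRF too. In differentiating ES cultures these genes mark spread, adherent cells as well as smooth muscle, so their RNA says nothing on its own about cell type.

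The stretches below show where the binding letters of the 2 factors lie in the promoters of members. They come from RefSeq promoters of build GRCm38.p6, which reach from 250 bases before to 50 bases after the annotated start, and 7 of the 10 members matched: Srf, Acta2, Cnn1, Cnn2, Tpm1, Myl9 and Ccn1. A pair of motifs was searched on both strands. The first was the CArG box, CC and GG around a run of A or T, and the second GGAATG, with CATTCC as its other strand. Only exact matches were counted, so a box with another base within its run, such as ccctatatgg in the Acta2 window, was left out. No match of one overlapped a match of the other in the members. An exact CArG box was found in Srf, Cnn2 and Myl9, and GGAATG in Acta2, Tpm1 and Ccn1, while Cnn1 held neither exact match in this window. Among all 32851 promoter windows of the table, 1.63% held a CArG box and 14.7% held GGAATG. Capitals mark the motifs.
Srf: CCATATAAGGagcggcctcgCCATAAAAGG
Myl9: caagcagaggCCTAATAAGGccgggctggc
Acta2: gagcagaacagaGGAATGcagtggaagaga
Tpm1: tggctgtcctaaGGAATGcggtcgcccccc
The Srf stretch lies at chr17:46556215-46556244 on the minus strand, and its CArG boxes begin 82 and 62 bases before the start. The Myl9 stretch lies at chr2:156775293-156775322 on the plus strand, with the CArG box beginning 161 bases before the start. The Acta2 stretch lies at chr19:34255502-34255531 on the minus strand, with GGAATG beginning 146 bases before the start. The Tpm1 stretch lies at chr9:67049252-67049281 on the minus strand, with GGAATG beginning 56 bases before the start. By the annotation the stretches of Srf, Acta2 and Tpm1 lie within the span of a gene that begins farther upstream, and that of Myl9 lies before its gene. A match of letters is a description and not a shown site.

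The 250 bases before the start are given in full for 1 contractile and 1 matricellular member, each lying wholly upstream of the annotated gene.
Cnn2: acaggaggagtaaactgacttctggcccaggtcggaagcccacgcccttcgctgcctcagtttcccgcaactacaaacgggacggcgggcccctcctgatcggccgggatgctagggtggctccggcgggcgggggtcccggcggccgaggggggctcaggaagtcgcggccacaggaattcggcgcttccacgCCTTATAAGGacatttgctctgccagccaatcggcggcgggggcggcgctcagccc
Ccn1: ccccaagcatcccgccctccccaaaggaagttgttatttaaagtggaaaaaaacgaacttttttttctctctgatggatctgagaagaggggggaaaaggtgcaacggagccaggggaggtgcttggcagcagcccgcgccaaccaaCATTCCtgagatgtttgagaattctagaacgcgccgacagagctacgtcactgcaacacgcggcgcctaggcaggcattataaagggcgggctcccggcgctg
The Cnn2 stretch lies at chr10:79988350-79988599 on the plus strand and holds a CArG box that begins 56 bases before the start. The Ccn1 stretch lies at chr3:145649986-145650235 on the minus strand and holds CATTCC beginning 103 bases before the start.

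The arrays were not all equally bright. The 2% trimmed mean of the deposited intensities lay between 110.5 and 128.4 on 7 arrays and at 77.5 on replicate 2 of Rbp2-/- with LIF. Differences were therefore taken after quantile normalization, on the scale log2(intensity + 16), and intensities are printed as deposited, followed for that dim array by the normalized value where it matters. The brightest probe set of Kdm5a, the targeted gene, read 100 and 80.2 in Rbp2-/- and 225.7 and 246.6 in Rbp2f/f cells deprived of LIF, and 31.2 and 30.6 in Rbp2-/- and 128.2 and 167.2 in Rbp2f/f with LIF. It was lower on every Rbp2-/- array, and some signal remained there. Of the other 5 Kdm5a probe sets, the 2 brighter ones were likewise lower on every Rbp2-/- array, and the 3 that stayed at or below 23 were not all lower there. Whether these probes lie in the deleted part was not tested. The 8 ES cell markers summed to 1383.6 and 2325.9 in Rbp2-/- and 2209.5 and 2428.7 in Rbp2f/f cells deprived of LIF, against 13039.1 and 6619.4 in Rbp2-/- and 13092.6 and 14233.0 in Rbp2f/f with LIF, so the ES label held for the cultures with LIF. Replicate 1 of Rbp2f/f with LIF had a 3' to 5' ratio of the Gapdh control probes of 1.11, against 0.78 to 0.85 on the other arrays. These are mixed cultures, in which fewer cells of a type and less RNA per cell cannot be told apart.

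The level of each gene is given by its brightest probe set, and of the 20 probe sets 18 were bright enough to be tested. The other 2 both belong to Acta2 and stayed at or below 11 on every array. The level of Srf varied little, from 195.2 to 279.7. Srf read 195.2 and 219.2 in Rbp2-/- and 204.2 and 206.8 in Rbp2f/f cells deprived of LIF, and 270.0 and 216.2 in Rbp2-/- and 229.1 and 279.7 in Rbp2f/f with LIF, with 317.7 for the dim array after normalization. Without LIF the genotypes overlapped, and after normalization every array without LIF was below every array with LIF. A second Srf probe set read 85.0 and 205.7 in Rbp2-/- and 225.5 and 264.3 in Rbp2f/f cells deprived of LIF, and 141.3 and 126.6 in Rbp2-/- and 219.7 and 182.1 in Rbp2f/f with LIF. It did not follow the first, and its name marks probes that can match related transcripts.

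Tpm1, which encodes the tropomyosin that lies along actin filaments, had the clearest pattern of the contractile genes. It read 4504.6 and 5100.6 in Rbp2-/- and 5154.4 and 5850.1 in Rbp2f/f cells deprived of LIF, against 1956.9 and 2514.0 in Rbp2-/- and 1422.6 and 1524.7 in Rbp2f/f with LIF, with 3527 for the dim array after normalization. All 4 arrays without LIF were above all 4 with LIF, as they were for the other 3 Tpm1 probe sets as deposited. Acta2, the smooth muscle alpha-actin, read 1445.7 and 2974.8 in Rbp2-/- and 3859.0 and 5855.2 in Rbp2f/f cells deprived of LIF, and 2213.7 and 3386.5 in Rbp2-/- and 3596.1 and 1017.1 in Rbp2f/f with LIF. Its probe set also carries the suffix for probes shared with related transcripts, and its 2 arrays of Rbp2f/f with LIF were far apart, the higher of them being the array with the raised Gapdh ratio. Tagln, which encodes the actin-binding protein transgelin, read 1751.8 and 2856.8 in Rbp2-/- and 3155.5 and 4875.5 in Rbp2f/f cells deprived of LIF, and 1412.2 and 2376.2 in Rbp2-/- and 2197.9 and 1300.4 in Rbp2f/f with LIF. The arrays of Rbp2f/f without LIF were the highest pair for both Acta2 and Tagln as deposited. After normalization the dim array stood at 4528 for Acta2 and 3281 for Tagln, inside the range of that pair.

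The calponins Cnn1 and Cnn2 bind actin and calmodulin and restrain myosin, Cnn1 chiefly in smooth muscle and Cnn2 more widely. Cnn2 read 1695.6 and 2811.3 in Rbp2-/- and 2825.7 and 3371.5 in Rbp2f/f cells deprived of LIF, and 1477.7 and 1930.4 in Rbp2-/- and 1858.9 and 1504.7 in Rbp2f/f with LIF. Cnn1 was dimmer, at 71.1 and 154.4 in Rbp2-/- and 124.6 and 408.8 in Rbp2f/f cells deprived of LIF, and 93.2 and 165.9 in Rbp2-/- and 117.8 and 99.3 in Rbp2f/f with LIF. One array, replicate 2 of Rbp2f/f without LIF, stood above all others for Cnn1, and the remaining arrays overlapped between groups. Myl9, a regulatory light chain of non-muscle and smooth muscle myosin, read 63.7 and 157.9 in Rbp2-/- and 100.9 and 224.2 in Rbp2f/f cells deprived of LIF, and 116.2 and 167.6 in Rbp2-/- and 182.4 and 168.1 in Rbp2f/f with LIF. Its groups overlapped in every comparison after normalization.

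The matricellular members encode secreted proteins that bind integrins and the matrix. Ccn2, formerly CTGF, read 198.6 and 686.3 in Rbp2-/- and 887.1 and 1792.9 in Rbp2f/f cells deprived of LIF, and 556.5 and 637.0 in Rbp2-/- and 1678.4 and 728.1 in Rbp2f/f with LIF. As deposited, every Rbp2-/- array was below both Rbp2f/f arrays of the same medium, and with LIF the 2 genotypes overlapped once the dim array was normalized to 938.6. Ccn1, formerly CYR61, read 402.0 and 1070.4 in Rbp2-/- and 994.7 and 1795.8 in Rbp2f/f cells deprived of LIF, and 603.7 and 892.7 in Rbp2-/- and 875.2 and 782.5 in Rbp2f/f with LIF. Its suffix marks probes that may match other transcripts, a second Ccn1 probe set ran from 304.9 to 1191.9, and the other 2 stayed between 3.9 and 36.5. Thbs1, which encodes thrombospondin 1, an activator of latent TGF-beta, read 204.1 and 471.1 in Rbp2-/- and 435.3 and 807.5 in Rbp2f/f cells deprived of LIF, and 285.5 and 266.3 in Rbp2-/- and 186.3 and 142.0 in Rbp2f/f with LIF. Its second probe set read 149.9 and 309.5 in Rbp2-/- and 244.7 and 397.5 in Rbp2f/f cells deprived of LIF, and 206.0 and 177.0 in Rbp2-/- and 70.9 and 131.4 in Rbp2f/f with LIF. Thbs1 was lowest by both probe sets on both arrays of Rbp2f/f with LIF, apart from every other array.

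**Figure D1:**
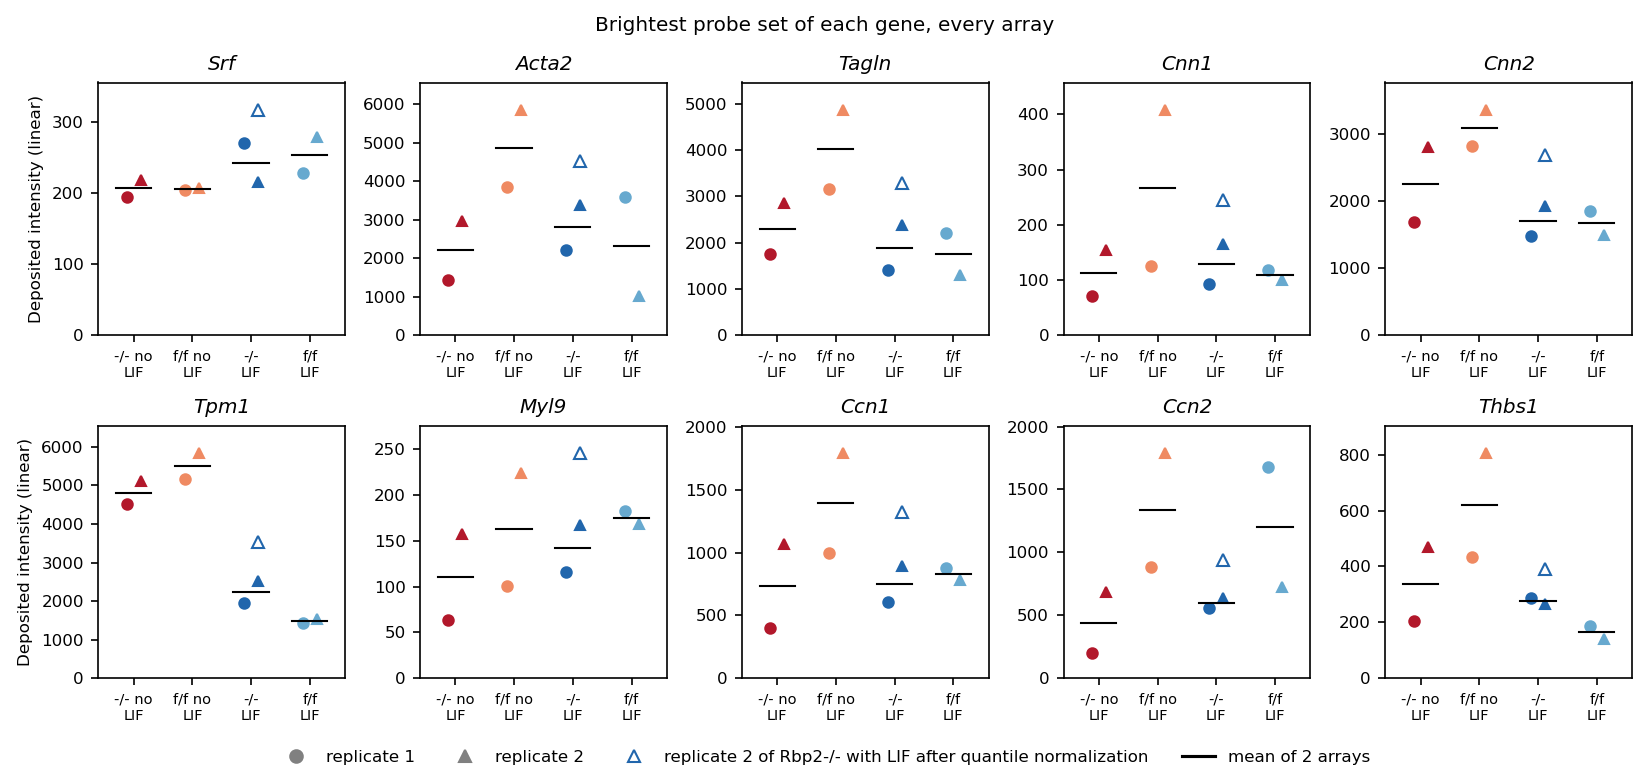
Deposited intensity (linear axis from 0) of the brightest probe set of each gene on all 8 arrays, with groups in columns, circles for replicate 1, triangles for replicate 2, bars for the mean of 2 arrays and an open triangle for the dim array after quantile normalization. Tpm1 separates the media on every array, Thbs1 is lowest in Rbp2f/f with LIF, and in the other panels the triangle mostly lies above the circle except in Rbp2f/f with LIF.

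Withdrawal of LIF raised 2 of the 10 genes in Rbp2f/f cells, Tpm1 and Thbs1, and lowered none. In this comparison 7.97% of the 27033 probe sets tested were called higher and 7.54% lower, by limma with a Benjamini-Hochberg adjusted p under 0.05. Tpm1 rose 4.04-fold, a log2 difference of 2.01 ± 0.23 (standard error, n = 2 each, limma adjusted p = 0.0011). Its 3 other probe sets also passed the test, with log2 differences of 1.60 ± 0.19, 2.28 ± 0.48 and 1.22 ± 0.35. Thbs1 rose 3.19-fold, a log2 difference of 1.67 ± 0.37 (limma adjusted p = 0.017), and its second probe set rose by 1.41 ± 0.35 (limma adjusted p = 0.027). The Thbs1 call was lost when the second Rbp2f/f array of either medium was left out. The log2 difference was then 1.25 (limma adjusted p = 0.15) for the array from cells without LIF and 1.48 (limma adjusted p = 0.064) for the one from cells with LIF.

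The other contractile members missed the threshold, and all of them but Myl9 were higher in mean without LIF in Rbp2f/f. The log2 difference was 1.30 ± 0.40 for Tagln (limma adjusted p = 0.059) and 0.95 ± 0.29 for Cnn2 (limma adjusted p = 0.055), and the arrays of both genes did not overlap between the media. Acta2 differed by 1.44 ± 0.55 (limma adjusted p = 0.11), and by 2.31 with a limma adjusted p of 0.024 when replicate 1 of Rbp2f/f with LIF was left out. Cnn1 differed by 0.84 ± 0.53 with overlapping arrays, and Myl9 by -0.33 ± 0.43. Of the matricellular genes, Ccn1 differed by 0.72 ± 0.46 (95% interval -0.30 to 1.75) and Ccn2 by 0.22 ± 0.56 (-1.02 to 1.47). Srf itself differed by -0.41 ± 0.19 (limma adjusted p = 0.18), and its second probe set by 0.14 ± 0.31. Arrays without LIF were wholly above those with LIF for 6 of the 10 genes and wholly below for 1, Srf, while 28.6% of all tested probe sets were wholly above and 30.3% wholly below.

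In Rbp2-/- cells none of the 10 genes passed the test on LIF withdrawal by its brightest probe set, where limma called 7.85% of all tested probe sets, 3.77% higher and 4.09% lower. At an unadjusted p under 0.05 there were 2 members, Tpm1 and Srf, against 23.3% of all tested probe sets. Tpm1 had a log2 difference of 0.82 ± 0.23 (95% interval 0.30 to 1.33, limma adjusted p = 0.063). Its second-brightest probe set passed, with 3762.0 and 4200.9 without LIF against 1905.1 and 2096.0 with LIF and a log2 difference of 0.72 ± 0.19 (limma adjusted p = 0.049). Srf differed by -0.63 ± 0.19 (limma adjusted p = 0.074) and Ccn2 by -1.05 ± 0.56 (limma adjusted p = 0.30). Thbs1 differed by -0.24 ± 0.37 (95% interval -1.07 to 0.59), Tagln by -0.01 ± 0.40 and Cnn2 by 0.06 ± 0.29. The median of the 10 genes was -0.57, against 0.02 over all tested probe sets, and it moved to -0.07 without the dim array and to -0.02 without replicate 1 of Rbp2-/- without LIF. It moved the other way, to -0.88, without replicate 1 of Rbp2-/- with LIF and to -0.91 without replicate 2 of Rbp2-/- without LIF. After normalization the arrays of 1 member, Tpm1, lay wholly above and of 1, Srf, wholly below, against 27.5% and 25.7% of all tested probe sets. As deposited Tpm1 still lay wholly above and Srf overlapped. On the intensities as deposited the members' median was -0.18, where the median of all probe sets was 0.35. Without the dim array Tpm1 passed, with a log2 difference of 1.23 (limma adjusted p = 0.0034).

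**Figure D2:**
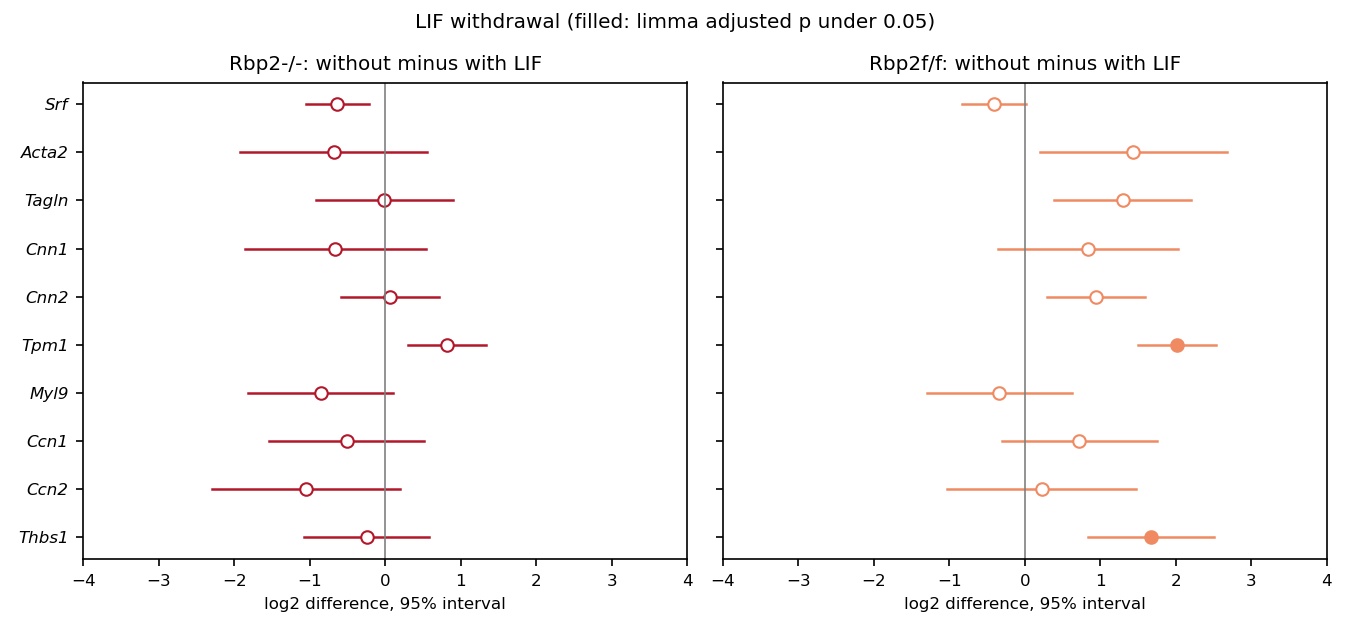
Log2 difference without minus with LIF, with 95% intervals, for the brightest probe set of each gene in Rbp2-/- (left) and Rbp2f/f (right). Filled points mark an adjusted p under 0.05: Tpm1 and Thbs1 in Rbp2f/f, and none in Rbp2-/-.

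Whether the response to LIF withdrawal differed between the genotypes was tested by the interaction, the difference in Rbp2-/- minus that in Rbp2f/f. It was below 0 for all 10 genes, with a median of -1.25 against 0.02 over all tested probe sets, and limma called none of them and 0% of all tested probe sets. The values ran from -2.12 ± 0.78 for Acta2 (limma adjusted p = 0.56) and -1.92 ± 0.52 for Thbs1 (95% interval -3.09 to -0.74, limma adjusted p = 0.50) to -0.52 ± 0.61 for Myl9 and -0.22 ± 0.27 for Srf. Tpm1 stood at -1.20 ± 0.33 (95% interval -1.93 to -0.46, limma adjusted p = 0.50). At an unadjusted p under 0.05 there were 4 members, and 8.52% of all tested probe sets. On the intensities as deposited Srf alone turned, to 0.07. The 4 arrays of each genotype enter every member's value, so the 10 values are not independent. Their median moved to -0.73 without the dim array, -0.79 without replicate 1 of Rbp2-/- without LIF and -0.80 without replicate 2 of Rbp2f/f without LIF, and on the intensities as deposited it was -0.84, where the median of all probe sets was 0.29. The farthest move the other way was to -1.76, without replicate 2 of Rbp2-/- without LIF.

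Between the genotypes without LIF, none of the 10 genes differed past the threshold, as for 0% of all tested probe sets in limma. The log2 difference, Rbp2-/- minus Rbp2f/f, was -1.78 ± 0.56 for Ccn2 (95% interval -3.03 to -0.54, limma adjusted p = 0.29), -1.28 ± 0.55 for Acta2 (limma adjusted p = 0.45) and -1.05 ± 0.46 for Ccn1. It was -0.94 ± 0.37 for Thbs1, -1.04 ± 0.53 for Cnn1, -0.87 ± 0.40 for Tagln, -0.55 ± 0.29 for Cnn2 and -0.53 ± 0.43 for Myl9. For Tpm1 it was -0.28 ± 0.23 (95% interval -0.79 to 0.24) and for Srf -0.00 ± 0.19 (-0.42 to 0.42). The second Srf probe set differed by -0.83 ± 0.31 (95% interval -1.53 to -0.13, limma adjusted p = 0.39), with both Rbp2-/- arrays below both Rbp2f/f arrays. The smallest adjusted p over all tested probe sets was 0.16, and an unadjusted p under 0.05 was reached by 4 members, Ccn2, Acta2, Ccn1 and Thbs1, and by 10.7% of all tested probe sets. By its second probe set Thbs1 differed by -0.54 ± 0.35 (95% interval -1.33 to 0.25), with overlapping arrays. The second-brightest Ccn1 probe set differed by -0.96 ± 0.42 (95% interval -1.91 to -0.01). After normalization both Rbp2-/- arrays lay below both Rbp2f/f arrays for 6 of the 10 genes, a pattern that 24.7% of all tested probe sets shared, and above for 0 members and 26.3%. As deposited they lay below for 5 members and above for 0. The median of the 10 genes was -0.90, against 0.01 over all tested probe sets, and moved to -0.41 without replicate 1 of Rbp2-/-, -0.48 without replicate 2 of Rbp2f/f, -1.32 without replicate 2 of Rbp2-/- and -1.27 without replicate 1 of Rbp2f/f. This comparison and the withdrawal in Rbp2f/f share the arrays of Rbp2f/f without LIF.

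With LIF, none of the 10 genes differed past the threshold between the genotypes, where limma called 0.0111% of all tested probe sets, 0.0037% higher and 0.0074% lower. An unadjusted p under 0.05 was reached by 2 members and by 11.4% of all tested probe sets. Those 2 were Tpm1, with 0.92 ± 0.23 (95% interval 0.40 to 1.44, limma adjusted p = 0.23), and Thbs1, with 0.98 ± 0.37 (0.15 to 1.81, limma adjusted p = 0.37), and for both the Rbp2-/- arrays lay above the Rbp2f/f arrays also as deposited. After quantile normalization, arrays lay wholly above for 3 members, Srf with 0.22 ± 0.19 being the third, and for 17.1% of all tested probe sets. They lay wholly below for 0 members and 20.4%. As deposited, 2 members lay wholly above and 2, Ccn2 and Myl9, wholly below. The second Srf probe set differed by -0.24 ± 0.31. Ccn2 differed by -0.51 ± 0.56 and Myl9 by -0.01 ± 0.43. The dim array belongs to this comparison: the median of the 10 genes was 0.39 after quantile normalization, 0.06 on the deposited intensities, where the median of all probe sets was -0.23, and -0.12 with the dim array left out. The difference was above 0 for 8 members after quantile normalization, 6 on the deposited intensities and 4 without the dim array. Without replicate 1 of Rbp2-/- with LIF, so with the dim array alone, the median was 0.91 and Tpm1 passed at 1.35 (limma adjusted p = 0.03).

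**Figure D3:**
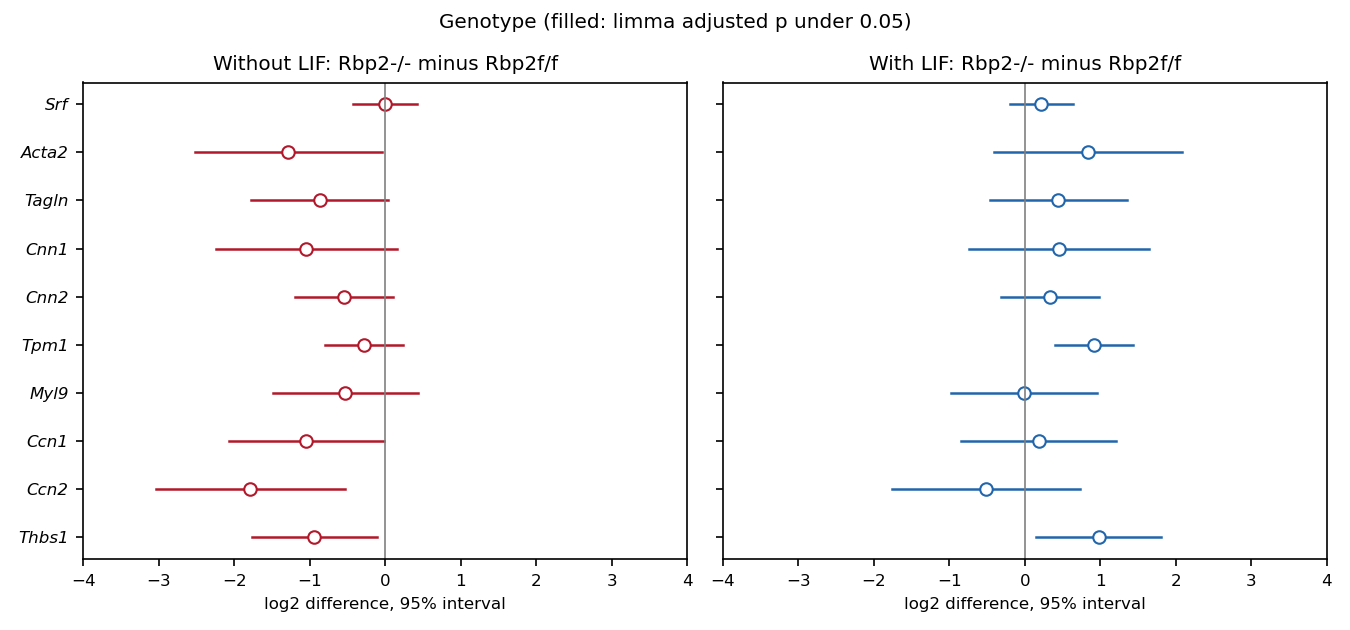
Log2 difference Rbp2-/- minus Rbp2f/f, with 95% intervals, for the brightest probe set of each gene without LIF (left) and with LIF (right). No point is filled, since no gene reached an adjusted p under 0.05, and Ccn2 without LIF lies farthest from 0 at -1.78.

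The replicate arrays of a group differed from each other in most members at once. In Rbp2-/- without LIF replicate 2 was above replicate 1 for 10 of the 10 genes, with a median log2 difference of 0.89, and in Rbp2f/f without LIF for 9 of 10, with a median of 0.73. In Rbp2-/- with LIF it was above for 10 of 10, with a median of 0.89, and in Rbp2f/f with LIF for 2 of 10, with a median of -0.28. The ES cell markers ran the other way within Rbp2-/- with LIF after normalization, with replicate 2 above for 1 of 8 and a median of -0.37, and that array correlated with the arrays without LIF at 0.93 to 0.94, against 0.91 to 0.93 for replicate 1 of its group. The part of this in the members' values was not tested. Over all tested probe sets replicate 2 was above in 47.7% to 49.9%. The widest gaps between replicates were 1.61 for Ccn2 in Rbp2-/- without LIF, 1.62 for Cnn1 in Rbp2f/f without LIF and -1.76 for Acta2 in Rbp2f/f with LIF. Srf and Tpm1 varied least in the cultures without LIF, by 0.00 for Srf and by 0.18 for Tpm1 in Rbp2-/-. Among 27 other genes of the SRF and contractile list, replicate 2 was above in 18 in Rbp2-/- and 21 in Rbp2f/f without LIF, and in 22 in Rbp2-/- and 10 in Rbp2f/f with LIF.

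**Figure D4:**
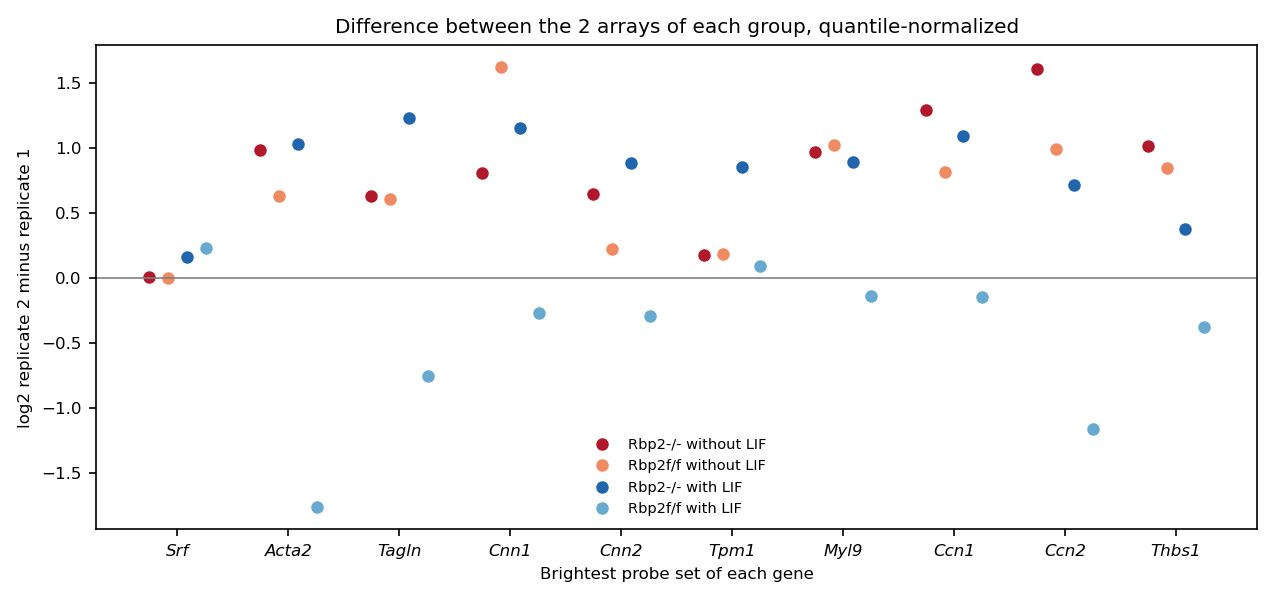
Log2 of replicate 2 minus replicate 1 within each group, after quantile normalization, for the brightest probe set of each gene. Most points of 3 groups lie above 0, while Rbp2f/f with LIF lies mostly below, down to -1.76 for Acta2.

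Over the 8 arrays Tagln and Cnn2 were the closest pair of members, with a Pearson r of 0.97, followed by Cnn1 and Ccn1 at 0.93 and Acta2 and Tagln at 0.91. Srf and Tpm1 were the farthest apart, at -0.65. Set against the mean profile of the other 9 members, Ccn1 had an r of 0.95, Cnn1 0.94, Acta2 0.88, Tagln 0.88, Cnn2 0.84 and Thbs1 0.81. Ccn2 stood at 0.68, Myl9 at 0.58, Tpm1 at 0.36 and Srf at -0.17. The 8 points share groups and normalization, and the gaps between replicates above are part of each r. Among 13413 other tested genes, the mean profile of the members was matched best by 5033430I15Rik, Pmepa1, Tor2a, Akt1s1 and Rnf24, with r from 0.96 to 0.98. Pmepa1, a TGF-beta-induced gene, read 99.4 and 216.8 in Rbp2-/- and 172.8 and 336.1 in Rbp2f/f cells deprived of LIF, and 133.7 and 191.1 in Rbp2-/- and 146.4 and 98.7 in Rbp2f/f with LIF. Its replicates had the same order within each group as those of most members, which the choice by correlation over these arrays favours. A link to TGF-beta was not tested.

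Other contractile and SRF target genes rose in part when LIF was withdrawn from Rbp2f/f cells. Of 27 tested, 8 were called higher and 0 lower, with a median of 0.92 against -0.01 over all tested probe sets. The 4 with the smallest p were Myh10, a non-muscle myosin heavy chain, at 1.40 ± 0.15, Tpm4, another tropomyosin, at 1.38 ± 0.32, the actin crosslinker Actn1 at 0.99 ± 0.23, and filamin Flna at 1.37 ± 0.33. In Rbp2-/- cells 1 of the 27 was called, Myh10, at 1.33 ± 0.15 (limma adjusted p = 0.0016), and the median was 0.08. Over all tested probe sets 7.97% were called higher and 7.54% lower in Rbp2f/f, and 3.77% and 4.09% in Rbp2-/-. The 1 call of 27 in Rbp2-/- was near that share. Of the 5 tested SRF cofactor genes, Elk3 rose in Rbp2f/f by 1.09 ± 0.27 (limma adjusted p = 0.027), and none was called in Rbp2-/-. Mrtfa, which encodes a myocardin-related partner, differed by 0.60 ± 0.23 in Rbp2f/f (limma adjusted p = 0.12). Of 10 immediate early targets, Mcl1, an anti-apoptotic gene, fell in both genotypes, with log2 differences of -0.85 ± 0.17 in Rbp2-/- and -0.73 ± 0.17 in Rbp2f/f. Egr1 and Fosl1, which encode transcription factors, fell in Rbp2-/-, with -1.85 ± 0.40 and -1.11 ± 0.29. For Rbp2f/f, Fosl1 was at -0.96 ± 0.29 (limma adjusted p = 0.051) and Egr1 at 0.03 ± 0.40. The Rbp2f/f arrays with LIF were far apart for Egr1, at 316.6 and 106.2. In Rbp2-/- the 3 calls became 0 or 1 when any 1 of the 4 Rbp2-/- arrays was left out, and 1 on the deposited intensities, where the Mcl1 arrays read 1144.9 and 1660.7 without LIF against 2600.4 and 1547.4 with LIF and overlapped. The 1 call in Rbp2f/f became 0 on the deposited intensities, and also when replicate 1 of Rbp2f/f with LIF or either Rbp2f/f array without LIF was dropped.

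Other YAP and TEAD targets went both ways on LIF withdrawal. In Rbp2-/- 1 of 20 tested was called higher and 2 lower, and in Rbp2f/f 3 higher and 3 lower. Over all tested probe sets the shares called were 3.77% higher and 4.09% lower in Rbp2-/-, and 7.97% and 7.54% in Rbp2f/f. Gadd45a, a stress and growth arrest gene, fell, with -1.74 ± 0.22 in Rbp2-/- and -1.36 ± 0.22 in Rbp2f/f, and Arhgef17 rose by 0.95 ± 0.23 and 1.01 ± 0.23 in the same order. Among the 9 YAP, TAZ, TEAD and VGLL factors, Tead2 rose by 1.31 ± 0.27 in Rbp2-/- and 0.99 ± 0.27 in Rbp2f/f. Wwtr1, the gene for TAZ, rose in Rbp2f/f by 1.39 ± 0.28 and stood at 0.99 ± 0.28 in Rbp2-/- (limma adjusted p = 0.063). Of 10 Hippo kinases and scaffolds, 2 were called higher in each genotype and 0 lower. Amot, a scaffold that holds YAP, rose by 3.02 ± 0.31 in Rbp2-/- and 3.42 ± 0.31 in Rbp2f/f. Of 10 TGF-beta ligands, receptors and targets, 2 were called higher in Rbp2-/- and 5 in Rbp2f/f, and Tgfb1 rose by 1.66 ± 0.23 in Rbp2-/- and 1.47 ± 0.23 in Rbp2f/f. None of 6 other CCN and thrombospondin genes was called by limma in either genotype, with 1 in Rbp2-/- and 1 in Rbp2f/f at an unadjusted p under 0.05. On withdrawal 23.3% of all tested probe sets in Rbp2-/- and 29.9% in Rbp2f/f reached that p. No gene of any of these lists was called between the genotypes in either medium or in the interaction, where at an unadjusted p under 0.05 there were 4 of the 27 contractile and SRF targets without LIF, 5 with LIF and 7 in the interaction, and 7, 4 and 4 of the 20 YAP and TEAD targets. Over all tested probe sets the share was 10.7% without LIF, 11.4% with LIF and 8.52% in the interaction.

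The counts over these lists rested on few arrays. When 1 array of Rbp2f/f without LIF was left out, whichever of the pair it was, each list above had between 0 and 2 genes called higher in Rbp2f/f, and the other contractile and SRF targets had 1. That list had 2 calls once replicate 2 of Rbp2f/f with LIF was dropped, and 14 when either array of Rbp2-/- with LIF was. The YAP and TEAD targets had 1 gene called higher in Rbp2f/f once that array was dropped and 5 when either array of Rbp2-/- with LIF was, the cofactors had 0 without the first of these, and the YAP, TAZ and TEAD factors had 0 once replicate 1 of Rbp2f/f with LIF was dropped. In Rbp2-/-, leaving out 1 array gave between 0 and 4 calls in each direction for every list above.

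Markers of other cell types moved in the same cultures. On LIF withdrawal limma called 3.77% of all tested probe sets higher and 4.09% lower in Rbp2-/-, and 7.97% and 7.54% in Rbp2f/f. An unadjusted p under 0.05 was reached by 23.3% of them in Rbp2-/- and 29.9% in Rbp2f/f. Of 8 tested feeder fibroblast markers, limma called 0 in Rbp2-/-, with 2 at an unadjusted p under 0.05, and 5 higher in Rbp2f/f on LIF withdrawal, and their sum was 3591.1 and 1333.7 in Rbp2-/- and 1526.3 and 1507.8 in Rbp2f/f cells deprived of LIF, against 772.5 and 499.2 in Rbp2-/- and 613.8 and 357.3 in Rbp2f/f with LIF. That count of 5 was between 0 and 2 when any 1 of the 4 Rbp2f/f arrays was left out. The highest sum, on replicate 1 of Rbp2-/- without LIF, was mostly Col1a1 at 2811.2, and replicate 2 of that group was above replicate 1 for 4 of the 8 markers, with a median log2 difference of -0.02. Of the 6 smooth muscle markers, Myh11 stayed at or below 7.0 and Lmod1 at or below 12.8 on all arrays, Myocd at or below 27, and none of the 3 tested was called by limma on LIF withdrawal, with 0 in Rbp2-/- and 0 in Rbp2f/f at an unadjusted p under 0.05. Their sum was 334.0 and 530.5 in Rbp2-/- and 325.3 and 442.5 in Rbp2f/f cells deprived of LIF, against 324.7 and 328.3 in Rbp2-/- and 178.3 and 256.1 in Rbp2f/f with LIF. Of 7 extraembryonic endoderm markers tested, 3 rose in Rbp2-/- and 5 in Rbp2f/f, Gata6 by 2.31 ± 0.33 and 2.49 ± 0.33 in that order. The count in Rbp2-/- was 1 or 2 when 1 of the 4 Rbp2-/- arrays was left out, and that in Rbp2f/f 2 or 3 when 1 of the 4 Rbp2f/f arrays was. Their sum was 2558.3 and 3283.2 in Rbp2-/- and 3837.3 and 4067.6 in Rbp2f/f cells deprived of LIF, against 1113.4 and 1392.1 in Rbp2-/- and 1851.0 and 1121.9 in Rbp2f/f with LIF. The part of these cells in the levels of the 10 genes was not tested. Cardiac and endothelial markers had at most 1 call in each direction per genotype. Among 5 cardiac markers tested, Tnni1 rose in both genotypes, by 2.38 ± 0.34 in Rbp2-/- and 1.31 ± 0.34 in Rbp2f/f. It was the only 1 of the 5 above 0 in Rbp2-/-, and Myh6 was called lower in Rbp2f/f, at -1.04 ± 0.25. Among 4 endothelial markers, Kdr was called higher in Rbp2-/-, at 1.40 ± 0.37, and Tek lower in Rbp2f/f, at -1.47 ± 0.43.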

How the data were processed

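Per the labels' protocols, total RNA was column-purified with DNase treatment and biotin-labelled cRNA was hybridised to 8 arrays. The values used are intensities per probe set, deposited by the authors on a linear scale that runs up to 11476.5 and includes 39 zeros. How they were summarised, background-corrected and scaled is not given in the sources used here. The number of arrays limits the precision.

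Control probe sets (64) were removed, and the intensities were quantile-normalized, given a pseudocount of 16 and taken to log2. The 27033 probe sets whose mean reached the 40th percentile (13.0) entered 1 fit in limma (version 3.58.1, R 4.3.3), with 4 group means over 8 arrays, eBayes with a trend (4 residual and 5.45 prior degrees of freedom), and Benjamini-Hochberg adjustment over all tested probe sets. Tests were two-sided. A fold on this scale understates changes of dim genes. Errors are standard errors of the fit. The fit was tested on simulated arrays with independent noise, which held neither a dim array nor shifts between replicates shared by genes. Promoters were searched with Python 3.11.15.

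Symbols came from the platform's annotation: 34958 probe sets had 1 symbol, 932 several and 9211 none, and the last 2 kinds were named after no gene. Each gene is given by its brightest probe set. Named were Kdm5a, all members and the 5 genes most like the members' mean profile. List genes were named from the 4 with the smallest p per list and comparison with a call (2 otherwise). Not every list gene so chosen is named, and the untested smooth muscle markers are named for their level. The members and the 15 lists (153 genes, 149 measured) were chosen with earlier results of these data known. One of these lists is not reported here.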

Additional observations from a re-analysis of the deposited data

How the results depend on the processing

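Of 850 values (the 10 members in 5 comparisons under 17 alternatives), 800 kept their direction and their side of the threshold, 2 lost the call, 21 gained one and 27 changed sign without being called on either side. None reversed a called direction. Tpm1 on LIF withdrawal in Rbp2f/f was called under all 17, with log2 differences of 1.86 to 2.11, and Thbs1 under 15. For withdrawal in Rbp2f/f, where 2 members were called, 4 were called on intensities as deposited, 4 with median centring, 4 with one probe set per gene, 4 with the replicate block, and 1 to 4 leaving out single arrays. For withdrawal in Rbp2-/-, where 0 were called, 1 was called as deposited, 1 with median centring, 2 with one probe set per gene, 1 with the replicate block and 0 to 1 leaving out single arrays. For the genotype effect with LIF it was 0 to 1 leaving out single arrays. The gains were chiefly Tagln and Cnn2 in Rbp2f/f and Tpm1 in Rbp2-/-, and the cause was not tested. Without LIF and in the interaction, 0 members were called under any alternative.

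Over all probe sets, leaving out single arrays gave 821 to 4627 calls for withdrawal in Rbp2f/f, 480 to 2661 in Rbp2-/- and 1 to 273 for the genotype effect with LIF, against 4193, 2123 and 3. As deposited there were 3109, 3553 and 11. With LIF the block gave 13 calls, and one probe set per gene gave 0. For withdrawal in Rbp2-/-, no filter gave 1402. The labels do not say that replicate numbers pair samples, so the numbers were not taken as a pairing, and the block served as an alternative. Deviations of same-numbered arrays correlated at -0.09 to 0.19, over 0.1 in 3 of 6 pairs of groups (those without Rbp2f/f with LIF). In these 3 groups replicate 2 was also above replicate 1 for 9 or 10 of the 10 members. Whether same-numbered arrays share a source was not tested.

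With 2 arrays a group, a difference that missed the threshold was not shown to be absent. The dim array decides the sign of the members' median in the genotype effect with LIF.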

Other observations

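The probe set annotated to both Pald1 and Thbs1 was named after neither. It read 238.3 and 606.6 in Rbp2-/- and 604.9 and 1136.0 in Rbp2f/f cells deprived of LIF, and 332.1 and 425.9 in Rbp2-/- and 610.4 and 215.1 in Rbp2f/f with LIF. It read 610.4 on replicate 1 of Rbp2f/f with LIF, where the brightest probe set of Thbs1 alone read 186.3.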
